A study of Homo sapiens with 24 samples.

Results

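The comparison described here sets RBFOX2 against SLBP in 293T cells, a human embryonic kidney cell line that carries the SV40 large T antigen, at 1 amount of RNase I. Its members are 4 of the 24 samples of an enhanced CLIP (eCLIP) series, the RBFOX2 and SLBP immunoprecipitations, replicates 1 and 2 each, whose lysates received 40 U of RNase I. They were chosen by the antibody, cell line and RNase amount in the sample labels. 7 samples had peak lists, and the SLBP lists made at 5 U were left out of the comparison. All 4 libraries came from unmodified 293T cells crosslinked on the plate with ultraviolet light, and each had its own input, a part of the lysate not taken through immunoprecipitation, at the same 40 U. The RBFOX2 antibody was from Bethyl and the SLBP antibody from MBL, so antibody and target protein cannot be told apart, nor can the gel region cut, which the protocol sets by protein size. 1 IgG isotype control list at 40 U is given beside the values as background. Nothing in the labels says that the replicates came from separate cultures, so the spread between them may be technical.

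RBFOX2 is a splicing regulator of the Fox family. It binds single-stranded UGCAUG elements, many of them in introns beside alternative exons, and it acts on the splicing of transcripts that include its own. SLBP, the stem-loop binding protein, recognises the hairpin with which the mRNAs of replication-dependent histones end in place of a poly(A) tail, and takes part in their processing, translation and decay. The replication-dependent histone genes lie mostly in clusters, the largest on chromosome 6. Replacement histone genes such as H3-3A, by contrast, make polyadenylated mRNAs.

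Each list gives a peak's position in hg19, its strand, a −log10 p and a log2 fold over its own input, all of them the authors' values. An enriched peak here has a −log10 p of at least 5 and a log2 fold of at least 3, which is 8-fold over input. Scaling and zero point of the folds are not known to match between lists, so differences between folds of different lists, including the gaps by which shared places are ordered below, describe the lists and not a measured difference in binding. The lists hold no read counts, so depth is unknown. With 2 libraries against 2, the exact two-sided permutation test over samples cannot go below p = 0.333.

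The RBFOX2 lists held several times as many peaks as the SLBP lists, and the gap was wider among enriched peaks. RBFOX2 replicates 1 and 2 had 74902 and 97594 peaks, and SLBP replicates 1 and 2 had 23034 and 18349. The groups did not overlap, and the ratio of the means was 4.17 (exact permutation p = 0.333, n = 2 against 2). The IgG list, with 28361 peaks, was longer than either SLBP list. Enriched peaks numbered 5954 and 7480 with RBFOX2, which is 7.95% and 7.66% of the peaks. With SLBP they numbered 284 and 233, or 1.23% and 1.27%, against 51, or 0.18%, in the IgG list. The ratio of means was 26 (exact permutation p = 0.333, n = 2 against 2). On fold alone the antibodies stood closer. A log2 fold of at least 3 was reached by 8974 and 11300 RBFOX2 peaks, 1660 and 1366 SLBP peaks and 1168 IgG peaks. Of these, 66.3% and 66.2% with RBFOX2 also passed the p limit, against 17.1% in both SLBP lists and 4.37% in the IgG list.

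**Figure D1:**
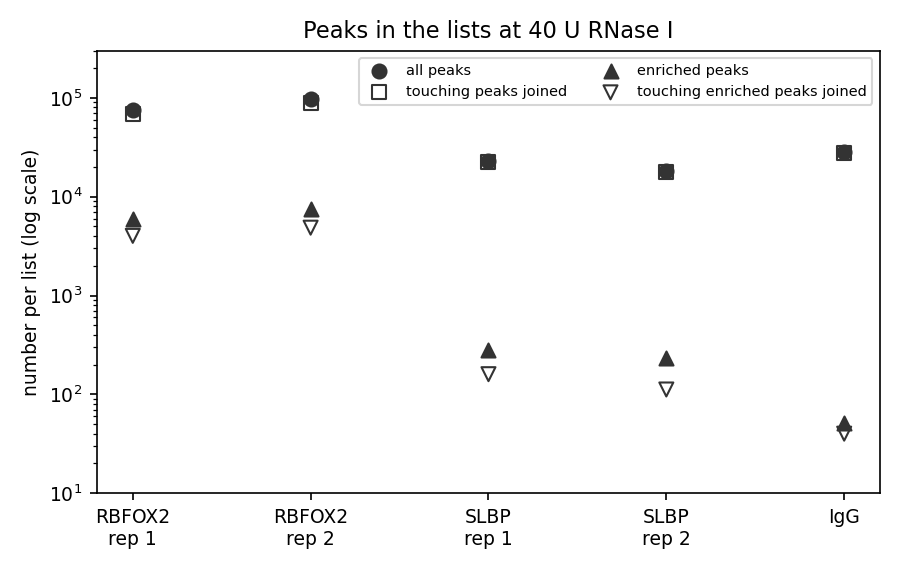
Number of peaks per list, on a log axis, for the 2 RBFOX2, 2 SLBP and 1 IgG lists: filled circles all peaks, filled triangles enriched peaks, open symbols the same after peaks that touch end to end were joined. Enriched peaks run from 5954 to 7480 with RBFOX2 and from 233 to 284 with SLBP, while the IgG list has 51.

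Over whole lists, peak width differed little between the antibodies, while enriched peaks differed more. The median width was 35 and 36 nt in the RBFOX2 lists and 32 nt in both SLBP lists, as in the IgG list. Enriched peaks had medians of 55 and 51 nt with RBFOX2 and of 28 and 26 nt with SLBP, so enriched peaks were wider than the whole list with RBFOX2 and narrower with SLBP. The medians averaged 53.0 ± 2.83 nt with RBFOX2 and 27.0 ± 1.41 nt with SLBP (SD, n = 2 each, exact permutation p = 0.333). Many enriched peaks touched the next one end to end, 47.8% and 50.4% with RBFOX2 and 65.1% and 74.3% with SLBP. After joining, the medians were 68 and 65 nt with RBFOX2 and 43.5 and 50.5 nt with SLBP. Peaks under 10 nt made up 10.2% and 10.3% of the enriched SLBP peaks, against 2.15% and 2.65% of the enriched RBFOX2 peaks.

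Clustering along a strand went in opposite directions for all peaks and for enriched peaks. Of all peaks, 71.5% and 74.8% with RBFOX2 had another peak of the list within 1 kb on the same strand, against 51.9% and 49.1% with SLBP and 51.5% with IgG. Among enriched peaks, with neighbours counted among enriched peaks only, the shares were 73.7% and 76.8% with RBFOX2, 89.8% and 93.6% with SLBP and 49.0% with IgG. RBFOX2 was higher in the first measure and SLBP in the second, without overlap in either (exact permutation p = 0.333 for each, n = 2 against 2). Neighbour shares move with the number of peaks in a list and with the splitting of a site into touching peaks. Within 200 nt the enriched shares were already 88.4% and 91.8% with SLBP and 67.8% and 70.7% with RBFOX2. Enriched peaks within 1 kb of each other formed 2514 and 2904 clusters with RBFOX2 and 77 and 61 with SLBP. The mean number of enriched peaks per cluster was 2.37 and 2.58 with RBFOX2 and 3.69 and 3.82 with SLBP.

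**Figure D2:**
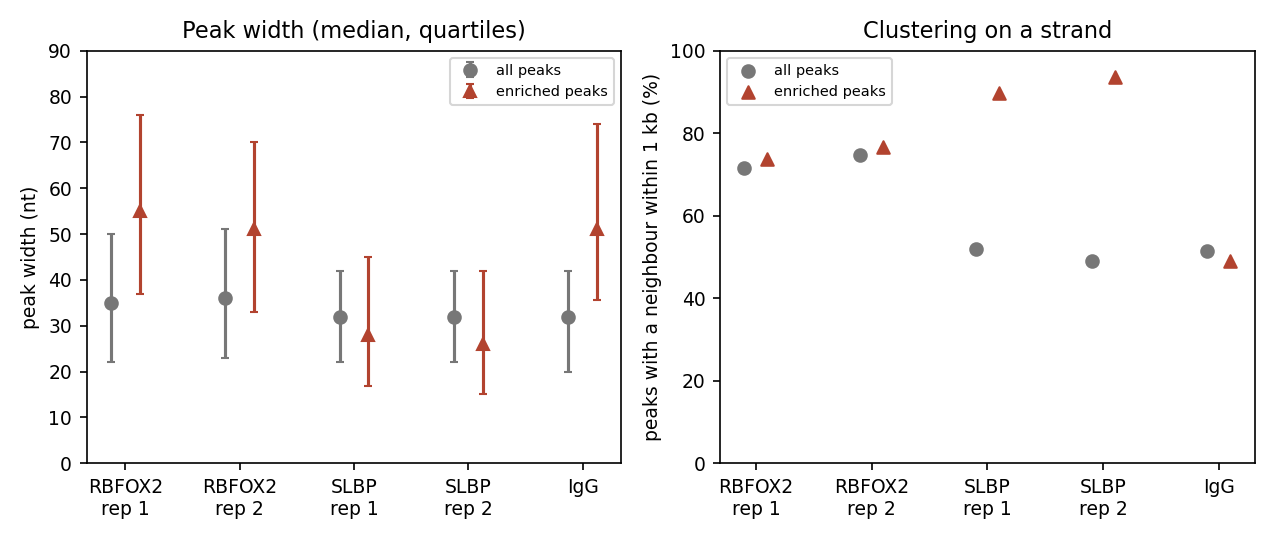
Left, peak width in nt (median, with bars to the quartiles); right, percent of peaks with a same-strand neighbour within 1 kb; grey circles are all peaks and red triangles enriched peaks, for each list. Enriched SLBP peaks have the smallest median widths, 28 and 26 nt, and the highest neighbour shares, 89.8% and 93.6%.

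The largest clusters of enriched peaks lay in different kinds of gene. Gene names here rest on hg19 spans written from general knowledge of the genome and compared with RefSeq's GRCh38.p14 gene table for chromosome, length and, where listed, strand, with no hg19 annotation used here. In RBFOX2 replicate 1 the largest cluster, chr7:43656767-43658998 on the minus strand, held 32 enriched peaks in COA1, a mitochondrial complex assembly factor. In replicate 2 the clusters at chr9:130994485-130996265 in DNM1 and chr20:61914333-61916206 in ARFGAP1, both on the plus strand, held 44 each. DNM1 encodes a dynamin of endocytosis and ARFGAP1 a GTPase-activating protein of the Golgi. Over the whole span of DNM1, 33 and 52 peaks were enriched with RBFOX2. SLBP had 5 and 1 peaks there and IgG 2, with 0 enriched. With SLBP the largest cluster of replicate 1, chr11:118965603-118966108 on the minus strand, held 15 enriched peaks in H2AX. That gene encodes a histone variant whose mRNA can end at a stem-loop or be polyadenylated. The largest of replicate 2, chr6:26204872-26205247 on the plus strand, held 14 in the histone H4 gene H4C5. The 10 largest clusters took 36.3% and 39.5% of the enriched peaks with SLBP and 4.50% and 4.37% with RBFOX2.

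The 4 windows around the replication-dependent histone clusters held similar numbers of RBFOX2 and SLBP peaks, fewer IgG peaks, and very unequal numbers of enriched ones. They held 198 and 234 RBFOX2 peaks, 267 and 231 SLBP peaks and 86 IgG peaks. Of these, 3 and 2 were enriched with RBFOX2, 233 and 201 with SLBP, and 0 with IgG. That was 82.0% and 86.3% of the enriched SLBP peaks and 0.050% and 0.027% of the enriched RBFOX2 peaks. The span of ABT1, a non-histone gene in the HIST1 window, held 3 and 2 enriched RBFOX2 peaks. Their top log2 folds, 4.01 and 4.46, were those of the HIST1 window. In the HIST1 window on chromosome 6, the median log2 fold was −0.36 and −1.07 in the RBFOX2 lists, 5.94 and 7.39 in the SLBP lists and 0.41 in the IgG list. The HIST2, HIST3 and HIST4 windows also had enriched peaks in both SLBP lists and none in either RBFOX2 list.

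By chromosome, shares of all peaks differed modestly and shares of enriched peaks strongly. On 21 of the 24 chromosomes compared, mitochondrial included, the 2 antibodies' shares of all peaks did not overlap (87.5%), with RBFOX2 higher on 12 and SLBP higher on 9. Chromosome 6 held 4.53% and 4.36% of all RBFOX2 peaks and 5.39% and 5.44% of all SLBP peaks. Without the histone windows the means were 4.28% and 4.53%, and the difference (RBFOX2 minus SLBP) went from −0.97 to −0.25 percentage points. Of enriched peaks it held 252 and 241 with RBFOX2 and 204 and 169 with SLBP, which was 71.8% and 72.5% of the SLBP total. Chromosome 1, with the HIST2 and HIST3 windows, had 35 and 32 enriched SLBP peaks, and chromosome 11, with H2AX, had 18 and 15. Chromosome 19 had 472 and 776 enriched peaks with RBFOX2 and 0 in both SLBP lists, although SLBP had a larger share of its peaks there than RBFOX2. The mitochondrial chromosome took 0.302% and 0.200% of RBFOX2 peaks and 0.599% and 0.616% of SLBP peaks, with 0.554% in the IgG list. An enriched peak in both libraries was present on 23 chromosomes for RBFOX2 and on 9 for SLBP.

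**Figure D3:**
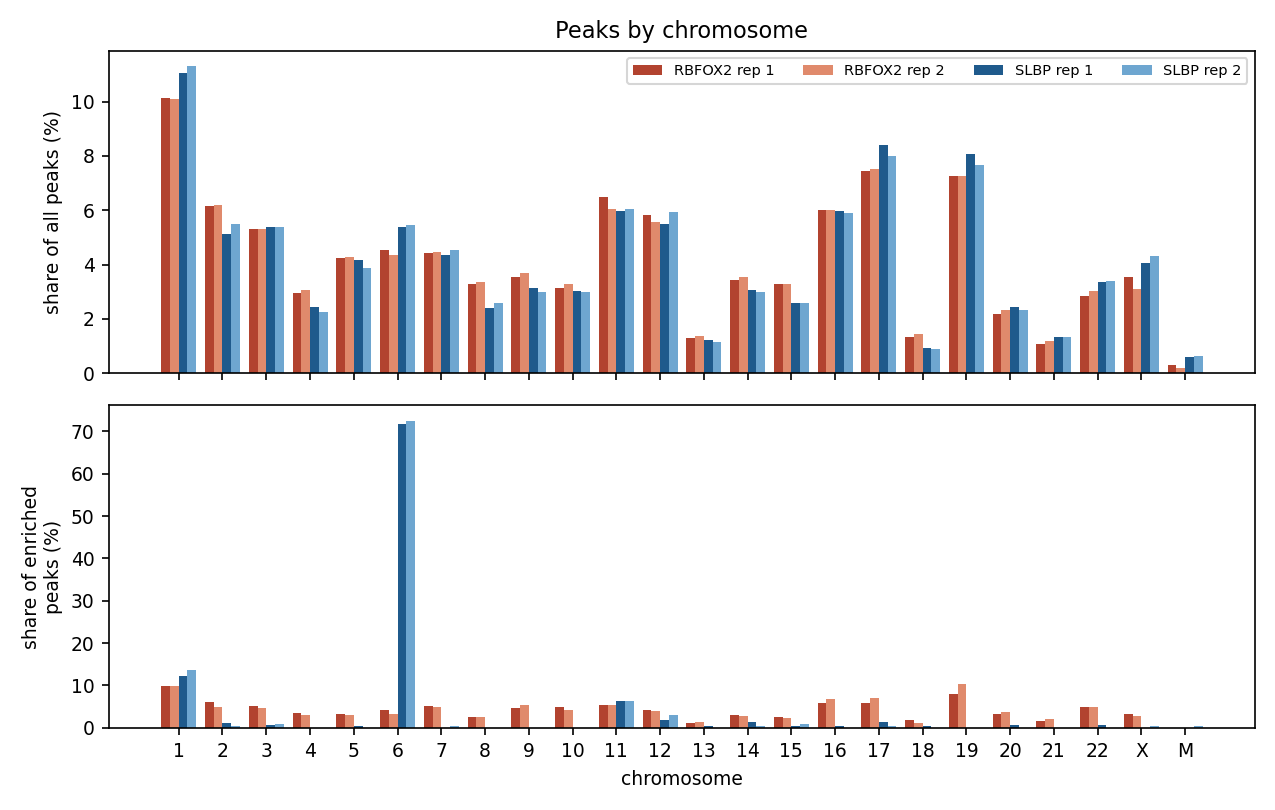
Share of each list's peaks by chromosome (M, mitochondrial), in percent: upper panel all peaks, lower panel enriched peaks, bars in red shades for the 2 RBFOX2 and blue shades for the 2 SLBP libraries. Chromosome 6 takes 71.8% and 72.5% of enriched SLBP peaks, while RBFOX2's enriched peaks spread over 23 chromosomes.

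Peaks were then matched between lists where they overlapped by at least 1 nt on the same strand. The RBFOX2 lists matched each other far more than they matched SLBP. Of RBFOX2 replicate 1 peaks, 60.6% had a replicate 2 peak, 10.9% and 10.1% had one in SLBP replicates 1 and 2, and 15.6% had one in the IgG list. For SLBP the order was the reverse. Of SLBP replicate 1 peaks, 23.5% had a peak in SLBP replicate 2, 32.6% and 34.2% had one in the RBFOX2 lists, and 26.9% had one in the IgG list. SLBP replicate 2 gave 29.1%, 37.5%, 37.3% and 30.6% in the same order. These shares move with list length, and the RBFOX2 lists are the longer ones. Between enriched peaks the SLBP libraries did match, since 74.3% of those of replicate 1 and 90.1% of those of replicate 2 overlapped an enriched peak of the other. No more than 4 enriched peaks of an SLBP list overlapped an enriched peak of an RBFOX2 list.

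Peaks that overlapped the other antibody had lower folds over input than those that did not, in all 4 libraries. With no peak of the other antibody, the median log2 fold was 1.00 and 1.03 in the RBFOX2 lists and 1.83 and 1.63 in the SLBP lists. With a peak in both libraries of the other antibody it was −0.74 and −1.18 for RBFOX2 and 0.98 and 0.82 for SLBP. Few SLBP peaks without RBFOX2 were in the other SLBP replicate, 9.48% and 12.6%, against 55.6% and 59.3% of those with both RBFOX2 libraries. For RBFOX2 these shares were 57.8% and 44.3% against 87.0% and 89.9%. Among SLBP peaks also in the other replicate, the medians were 1.24 and 1.36 without RBFOX2. With an RBFOX2 peak in 1 or both libraries they were 0.70 and 0.63. Over all peaks, whether or not in the other replicate, the enriched share moved in opposite directions. It was 9.02% and 8.30% of RBFOX2 peaks without SLBP and 1.10% and 1.21% of those with both SLBP libraries. For SLBP it was 0.773% and 0.861% without RBFOX2 and 2.12% and 1.82% with both, and outside the histone windows 0.112% and 0.0506% against 0.404% and 0.340%. Among peaks also in the other replicate, both antibodies had the lower enriched share with sharing. There it was 7.13% and 6.06% of SLBP peaks without RBFOX2, against 3.34% and 3.45% with an RBFOX2 peak in 1 or both libraries. For RBFOX2 it was 14.4% and 16.6% without SLBP, against 2.67% and 3.92%. The presence of an IgG peak moved with sharing in every library: 8.15% and 5.83% of RBFOX2 peaks without SLBP overlapped one, against 81.7% and 78.5% with both SLBP libraries. For SLBP the same shares were 9.66% and 10.4% against 64.0% and 66.6%. With a peak in 1 or both libraries of the other antibody counted as shared, the median log2 fold of shared peaks minus that of the others averaged −1.44 with RBFOX2 and −0.58 with SLBP. Without peaks that overlap an IgG peak, an alternative chosen after seeing the data, it was −1.03 with RBFOX2 and −0.22 with SLBP.

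**Figure D4:**
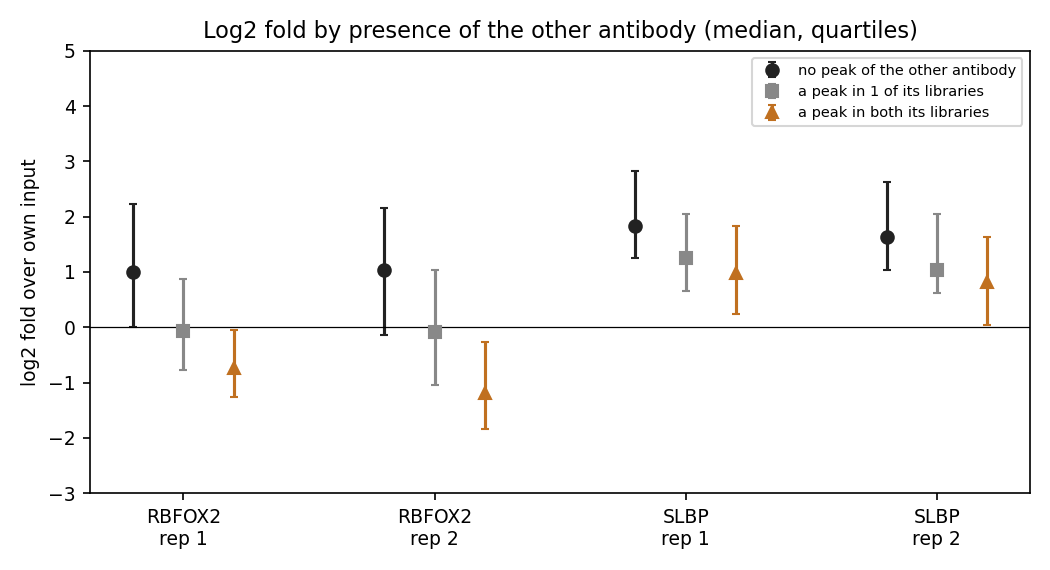
Log2 fold over own input (median, with bars to the quartiles) in each library, for peaks with no peak of the other antibody (circles), a peak in 1 of its libraries (squares) or in both (triangles). In all 4 libraries the median is highest without the other antibody, from 1.00 in RBFOX2 replicate 1 to 1.83 in SLBP replicate 1, and lowest with both, from −1.18 to 0.98.

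Chains of overlapping peaks on a strand were joined over the 4 lists into 142391 places. Of these, 3001 had a peak in all 4 libraries, 32958 in both RBFOX2 libraries and no SLBP library, and 1143 in both SLBP libraries and no RBFOX2 library. A further 9908 had both antibodies but not all 4 libraries, and 95381 had a peak in 1 library only. An IgG peak lay on 81.9% of the shared places, 9.34% of the RBFOX2-only places and 25.1% of the SLBP-only places. The median width was 75 nt at shared, 54 nt at RBFOX2-only and 45 nt at SLBP-only places, and a place joined from 4 lists is wider by construction. Of the shared places, 66 were mitochondrial and 43 lay in histone windows.

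Of the 142391 places, 2 were enriched in both libraries of each antibody. Of 40617 places with a peak in both RBFOX2 libraries, 2678 (6.59%, or 1.88% of all places) were enriched in both. Of these, 2507 had no SLBP peak at all, 141 had one in 1 SLBP library and 30 in both, and a single one lay in a histone window. Of 4978 places with a peak in both SLBP libraries, 100 (2.01%, or 0.0702% of all places) were enriched in both, and 88 of them lay in histone windows. RBFOX2 peaks were common at those places: 48 had one in both RBFOX2 libraries, 17 in 1 and 35 in none. At the 65 that had an RBFOX2 peak, 50 had a fold below input, with a median log2 fold of −0.86. At the 171 RBFOX2-enriched places that had an SLBP peak, 2 were below input and the median was 1.83. An IgG enriched peak lay on 35 of the 2678 and 2 of the 100. The places enriched with both antibodies were 2 of the 100, near the 1.88% of all places that were enriched in both RBFOX2 libraries.

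At the 3001 shared places the SLBP folds mostly stood above the RBFOX2 folds. Both SLBP values exceeded both RBFOX2 values at 2312 places (77%), the reverse held at 149 (4.97%), and the ranges overlapped at 540. At 1163 places both RBFOX2 values were below input and both SLBP values above it, and at 15 the reverse. As the zero points of the lists are not known to match, this direction describes the lists, not binding. Across these places, Pearson's r of the log2 folds was 0.86 between the RBFOX2 libraries and 0.78 between the SLBP libraries. Between antibodies it was 0.42 to 0.47, and 0.50 to 0.57 outside the histone windows. Places are not independent replicates, and the libraries of an antibody share that antibody's processing.

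**Figure D5:**
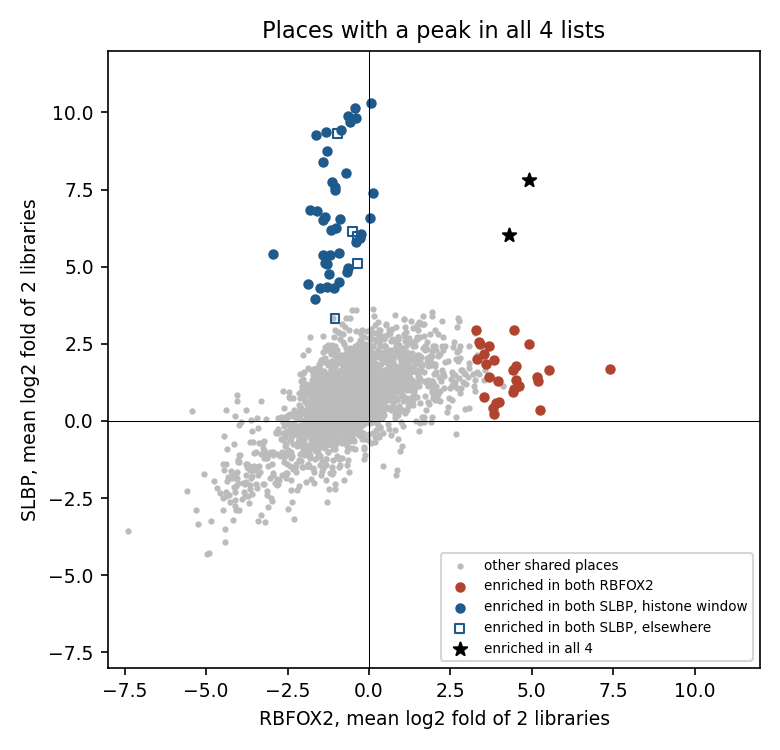
The 3001 places with a peak in all 4 lists: mean log2 fold of the 2 RBFOX2 libraries (x) against that of the 2 SLBP libraries (y). Blue marks places enriched in both SLBP libraries (filled, histone windows), red those enriched in both RBFOX2 libraries and black stars the 2 enriched in all 4; blue points lie near or below 0 for RBFOX2.

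Of the places with RBFOX2 only, those with the highest lower fold of the 2 libraries were led by HDAC4, a histone deacetylase gene. The place at chr2:240287205-240287718 on the minus strand had log2 folds of 8.89 and 9.42 in RBFOX2 replicates 1 and 2. The place next to it, from 240287719 to 240288013, had 8.53 and 8.70. A place in PACS2, which encodes a sorting protein, at chr14:105813266-105813500 on the plus strand had 8.93 and 8.76. PFDN1, a subunit of the prefoldin chaperone, had 8.66 and 8.32 at chr5:139646447-139646570 on the minus strand. LRCH4 had 8.30 and 9.14 at chr7:100172788-100173338 on the minus strand. The other places of the top 8 were 3 neighbours on the minus strand of chromosome 16 between 3104129 and 3104395, with no gene named here and folds from 8.07 to 9.16. Both RBFOX2 libraries were high at all 8, and SLBP had no peak at any. The IgG list had a peak at all 8 of them, enriched at 6, with log2 folds from 3.43 at PFDN1 to 6.31 at the first HDAC4 place. Its part in these values was not tested.

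The SLBP-only places with the highest folds in histone windows lay in H1, H2A, H3 and H4 genes. In H1-2, a linker histone gene, 3 neighbouring places on the minus strand of chromosome 6 between 26055970 and 26056085 had log2 folds of 9.62 and 10.36, 9.71 and 10.38, and 9.12 and 9.93 in SLBP replicates 1 and 2. H3C7, a histone H3 gene, had 9.74 and 9.10 at chr6:26250375-26250476 on the minus strand. H3C10, another, had 9.45 and 8.77 at chr6:27778280-27778308 on the plus strand. The H4 genes H4C8 and H4C1 had 9.09 and 8.85, and 8.44 and 10.10. The H2A gene H2AC17 had 9.64 and 8.65. None of these 8 places had an enriched IgG peak, and 2, both in H1-2, had an IgG peak at a log2 fold of 2.43. RBFOX2 did have peaks elsewhere in these genes: in H1-2 it had 2 in each list, with median log2 folds of −1.07 and −1.72.

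Outside the histone windows, 12 places were enriched in both SLBP libraries, and 6 of them lay on the H2AX cluster given above. The strongest, chr11:118965636-118965822 on the minus strand, had log2 folds of 9.05 and 9.59 with SLBP, −0.83 and −1.10 with RBFOX2 and 0.46 with IgG. It adjoins the place at 118965603-118965635, which had no RBFOX2 peak, so the class of a place does not describe the whole gene. Across H2AX all 15 and 13 SLBP peaks were enriched, and 0 of the 5 and 6 RBFOX2 peaks. A further place, chr6:25727532-25727573 on the plus strand, lay in H2BC1, a testis-type H2B gene at the edge of the HIST1 cluster, with 6.70 and 4.74 and no RBFOX2 or IgG peak. The place at chr6:10887836-10887861 on the plus strand, with no gene named here, had 4.30 and 5.89 with SLBP, 0.33 and −1.02 with RBFOX2 and 0.31 with IgG. The remaining ones were single places on chromosomes 2 and 15 with SLBP folds from 3.03 to 4.0, and the 2 places enriched in all 4 libraries.

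Shared places with the widest gap towards SLBP were histone places. At H2BC26, an H2B gene in the HIST3 window, chr1:228646109-228646256 on the plus strand had log2 folds of 9.03 and 9.48 with SLBP against −1.59 and −1.68 with RBFOX2. H4C4, an H4 gene, had 9.23 and 10.14 against −0.68 and −0.48. H2BC21 in the HIST2 window had 8.87 and 9.85 against −0.74 and −1.90, and H2BC17 had 7.85 and 8.93 against −1.32 and −1.52. The other places of the top 8 were the H2AX place given above and 3 unnamed places in the HIST1 window. Both RBFOX2 folds were below input at each of the 8 except chr6:27114141-27114187 on the minus strand, with −0.59 and 0.73.

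The gap towards RBFOX2 was widest in EPB41L2, which encodes a protein 4.1 family member. At chr6:131201195-131201258 on the minus strand the log2 folds were 7.18 and 7.61 with RBFOX2, 0.51 and 2.85 with SLBP and 3.53, enriched, with IgG. LETM1, a gene of the inner mitochondrial membrane, had 5.23 and 5.81 against 1.66 and 1.63 at chr4:1824113-1824724 on the minus strand. SRSF6, itself a splicing factor, had 3.78 and 3.86 against 0.41 at both SLBP libraries. NISCH, with 2 places, FN3KRP and a place on chromosome 10 were also among the 8 with the widest gap.

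2 places were enriched in all 4 libraries, and both were enriched with IgG as well. The place at chr6:31958259-31958279 on the plus strand, in the span of the complement gene C4A, had log2 folds of 3.87 and 4.76 with RBFOX2, 5.37 and 6.71 with SLBP and 4.77 with IgG. C4A has a near-identical neighbour, C4B, so the assignment is uncertain. The place at chr17:18965389-18965452 on the plus strand had 6.31 and 3.52 with RBFOX2, 8.24 and 7.35 with SLBP and 8.29 with IgG. Its position is close to copies of the U3 small nucleolar RNA gene, but the span written for that copy failed the length comparison with the RefSeq table, so no gene is named. 1 more place, in MIR15B at chr3:160122389-160122417 on the plus strand, was enriched in replicate 2 of each antibody, with 4.51 for RBFOX2 and 4.13 for SLBP. No replicate 1 or IgG peak lay there. By the span written for this gene, whose length equals the table's, the place spans bases 14 to 42 of the 98-base hairpin and covers the whole 5p arm, bases 20 to 41, and none of the 3p arm. The mature sequence, from RefSeq's GRCh38.p14 annotation, is shown because it is what this place covers, with the seed, bases 2 to 8, in capitals.
hsa-miR-15b-5p: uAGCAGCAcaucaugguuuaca

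Among 13 transcripts known as targets or regulated by Fox proteins, 9 had an enriched peak in both RBFOX2 libraries and 12 in at least 1, while 0 had one in either SLBP library and 2 had one with IgG. Together they held 200 and 207 RBFOX2 peaks, of which 125 and 113 were enriched, beside 7.95% and 7.66% of all peaks of those lists. They held 47 and 39 SLBP peaks, and 1.23% and 1.27% of all SLBP peaks were enriched. The 0 with SLBP is therefore near the share of its lists and is no result about these transcripts. These transcripts were listed with earlier results of these data known. The RBFOX2 gene itself had 10 and 5 enriched RBFOX2 peaks of 14 and 10, with top log2 folds of 6.11 and 5.85. SLBP had 2 and 4 peaks there, with tops of 1.83 and 2.04, and IgG 1. DNM2, a dynamin gene, had 28 and 41 enriched of 41 and 49. NDEL1, which acts in dynein transport, had 21 and 16 of 23 and 25. HDAC4 had 17 and 21 of 18 and 21, EPB41L2 27 and 10 of 27 and 12, and NUMB, an inhibitor of Notch signalling, 8 and 6 of 14 and 20. EPB41, PTBP2 and QKI completed the 9, and QKI had only 1 and 3 enriched peaks. PICALM and MEF2A were enriched in replicate 1 only and MEF2D in replicate 2 only, while HDAC5 had top folds of 2.27 and 2.77 and no enriched peak. The 2 transcripts with IgG enrichment were HDAC4 and EPB41L2, at top log2 folds of 6.31 and 3.53. PFKP, GNAL, TBCD, SNAP47, PACS2 and C4A were listed because earlier results of these data had named them. The first 5 had 9 or more enriched peaks in each RBFOX2 list, from 0 to 8 SLBP peaks and 0 enriched SLBP peaks. With so few SLBP peaks, that 0 is near the enriched share of the whole SLBP lists. IgG was enriched in 3 of these 5, at top log2 folds of 4.63 in PACS2, 3.63 in TBCD and 3.94 in SNAP47. C4A differed, with 2 enriched SLBP peaks of 3 in each SLBP list. It had 3 enriched RBFOX2 peaks in each RBFOX2 list, of 4 and 5, and its 1 IgG peak was enriched at 4.77.

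The other transcript groups held few enriched peaks, apart from RBFOX2 peaks in ACTB. The 3 polyadenylated replacement histone genes, H3-3A, H3-3B and H2AZ1, had 0 enriched peaks in all lists, with 43 and 38 RBFOX2 peaks and 19 and 17 SLBP peaks. Of 8 abundant noncoding RNAs, 1, NEAT1, a nuclear scaffold RNA, had enriched RBFOX2 peaks, 12 of 159 and 12 of 121. Over the whole RBFOX2 lists 7.95% and 7.66% of peaks were enriched, so NEAT1 stood near that level. MALAT1 had 112 and 54 RBFOX2 peaks and 49 and 48 SLBP peaks, none enriched. RN7SL1, the RNA of the signal recognition particle, was below input throughout, with median log2 folds of −5.86 and −6.88 for RBFOX2, −2.62 and −4.58 for SLBP and −2.22 for IgG. Of 6 abundant mRNAs, ACTB, which encodes beta-actin, had 5 and 8 enriched RBFOX2 peaks of 18 in each list, HSP90AB1 had 1 in replicate 1, and SLBP had 0. The enriched shares in ACTB stood above the 7.95% and 7.66% of the whole RBFOX2 lists. The SLBP transcript had 5 and 4 RBFOX2 peaks and 1 SLBP peak in each SLBP list, none enriched. The 1 RBFOX2-enriched place in a histone window lay in ABT1, a non-histone gene, at chr6:26597480-26597607 on the plus strand, with 3.87 and 4.46.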

How the data were processed

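Per the labels' protocols, 293T cells were crosslinked, lysates were digested with RNase I, and RNA was recovered from immunoprecipitated complexes on a membrane. cutadapt, STAR, GATK, Picard, SAMtools and build hg19 were named, per the submitters' processing notes, with no version. Which program called the peaks is not given in the sources used. The deposited lists hold 1 interval per peak, strand, a −log10 p (up to 400) and a log2 fold over the paired input; the files have no header, and both units were read from the values. A pair of p and fold identical to another peak's was held by 94.0% and 94.9% of RBFOX2 peaks and 93.8% and 92.9% of SLBP peaks.

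Peaks were treated as called per library, matched at 1 nt or more on a strand and joined into places with Python 3.11.15, pandas 2.3.3 and numpy 2.4.6. The matching code was tested on simulated data. Tests were exact permutation tests over 2 against 2 samples. The members and gene lists were chosen with earlier results of these data known. Named places were, among those enriched in both libraries of an antibody, the top 8 of each set by the lower of the 2 folds (for shared places, by the gap from the lower fold of one antibody to the higher of the other) and every place enriched in all 4 lists; gene windows were described by group. The places in MIR15B and ABT1, and the SLBP-enriched ones outside histone windows that also had an RBFOX2 peak, were named after their values were seen. 1 of the top 8 places is not reported here.

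Gene spans came from general knowledge of hg19 and were compared with RefSeq's GRCh38.p14 table. Some were added after the place positions were seen, and 2 of these symbols were updated through the table. Of 74 spans compared, 70 lay on the listed chromosome, had a length within 25% of the table's and did not contradict its strand, and 4 failed on length and were not used: H2BC4, H2AC6, SHTN1 and SNORD3B-1. The kept spans had 53 with a strand to compare, and none was checked against an hg19 annotation.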

Additional observations from a re-analysis of the deposited data

Results flagged for a closer look

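The SLBP lists made at 5 U of RNase I were outside the comparison and carried the same places. Of the 35 places enriched in both SLBP libraries at 40 U with no RBFOX2 peak, 31 were enriched in replicate 3 at 5 U and 30 in replicate 4 at 5 U, against 0 in the IgG list. Over whole lists, 1.70% and 2.33% of the peaks at 5 U were enriched, and 0.18% of IgG peaks. The IgG list had any peak at 3 of the 35, so its 0 is near its own share. These 35 places were flagged for signal in lists not used for the comparison, above the IgG level. This was not particular to SLBP-only places. Of the 48 shared places enriched in both SLBP libraries, 46 and 43 were enriched in replicates 3 and 4 at 5 U, and 2 in the IgG list.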

How the results depend on the processing

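Of 98 recomputed values of 12 results, 79 counted as unchanged, 18 moved in size and 1 reversed direction. A ratio or count was unchanged within 1.5 times the main value. A difference was unchanged if it kept its direction and, with 1 library left out, lay within the pooled SD of the main value. No p could pass a threshold of 0.05 in this design. Some of the 79 still differed in size. Among enriched peaks only, the width difference went from 3.5 to 26 nt and the chromosome 6 difference from −0.97 to −68.5 points. The latter went to −0.25 without histone windows. The log2 fold difference of shared minus other peaks went from −0.85 to −1.47 among peaks also in the other replicate, an alternative chosen after seeing the data. With neighbours counted among enriched peaks only, the difference in neighbour share reversed, from 22.6 to −16.5 percentage points (RBFOX2 minus SLBP). The ratio of enriched peaks was 13.3 with stricter limits (−log10 p of 10, log2 fold of 4) and 6.70 with the fold alone. Shared places fell to 574 without peaks that overlap an IgG peak, an alternative chosen after seeing the data. Places enriched in all 4 libraries fell to 0 there and with the stricter limits. The causes were not tested.

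Leaving out 1 library at a time gave ratios of 3.62 to 4.72 for all peaks and 23.03 to 28.94 for enriched peaks. The difference in the share of peaks that overlap the other antibody (RBFOX2 minus SLBP) ran from −36.7 to −19.7 percentage points, and that in the log2 fold of shared minus other peaks from −0.99 to −0.52. A class that needs 1 library fewer grows by construction: shared places ran from 3339 to 5534 (5152 without SLBP replicate 1, 5534 without SLBP replicate 2). RBFOX2-only places ran from 35152 to 85711 (85711 without RBFOX2 replicate 1, 63373 without replicate 2). SLBP-only places ran from 1480 to 13461 (9988 without SLBP replicate 1, 13461 without replicate 2).

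Same-numbered libraries did not deviate together (r = −0.054). With the replicate number as a block the ratios were 4.29 for all and 26.5 for enriched peaks, the differences were as without it, and the smallest possible sign-flip p is 0.5. Unknown depth limits every fold.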
